A study of Homo sapiens with 9 samples.

Results

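The genes of store-operated calcium entry, the inositol trisphosphate (IP3) receptors of the endoplasmic reticulum, the calcium pumps and the calcineurin feedback gene *RCAN1* were followed in a human breast cancer line, MDA-MB-231, grown at low or high fluid viscosity. These are 10 genes of 60664 listed, chosen by name with earlier results of these data known. They are the channels *ORAI1*, *ORAI2* and *ORAI3*, the sensors *STIM1* and *STIM2*, the release channels *ITPR1* and *ITPR3*, the pumps *ATP2A2* and *ATP2B1*, and *RCAN1*. RNA was sequenced in 9 samples, 3 in each of 3 groups, all collected on day 6. Cells with a non-targeting scramble RNA (SC) were kept in medium of 0.77 cP or 8 cP, and cells with a short hairpin RNA against the ion channel gene *TRPV4* (shTRPV4) were kept at 8 cP. The SC cells are called low-viscosity and high-viscosity SC cells here. All groups are wild-type MDA-MB-231 cells with a stably integrated lentiviral pLKO.1 puro vector, kept under puromycin. The 8 cP medium was thickened with methylcellulose, of which the 0.77 cP medium held none. Viscosity and the presence of methylcellulose therefore cannot be told apart here. The methods list more than 1 hairpin against *TRPV4*, and by their account the RNA rests on 1 of them, the one they number 2. The hairpin cells were followed at 8 cP alone, so the groups give the effect of viscosity only in SC cells and the effect of the hairpin only at 8 cP. TRPV4 is a channel that lets calcium into the cell. The comparisons ask how the other genes that move calcium stood after days at high viscosity, with and without the hairpin against its gene.

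When receptors at the plasma membrane activate phospholipase C, the IP3 that is made opens IP3 receptors and calcium leaves the endoplasmic reticulum. STIM proteins span the reticulum membrane, sense that the store has emptied, and gather beneath the plasma membrane, where they open ORAI channels so that calcium flows in from outside. SERCA pumps, such as the ATP2A2 product, refill the store, and plasma membrane calcium pumps, such as the ATP2B1 product, expel calcium from the cell. A lasting rise of calcium activates the phosphatase calcineurin and through it NFAT factors, which are known to switch on the inner promoter of *RCAN1*, whose product binds and restrains calcineurin.

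Total counts per sample ranged from 64571681 to 103518036, and edgeR tested 18264 genes, all 10 members among them. *TRPV4*, the gene targeted by the hairpin, had 40, 28 and 54 counts in low-viscosity SC cells, 64, 45 and 24 in high-viscosity SC cells and 7, 1 and 13 in shTRPV4 cells. Its log2 fold change between shTRPV4 and high-viscosity SC cells was −2.51 (SE 0.492, adjusted p = 0.00219, edgeR). Of the markers checked, *VIM*, *CD44*, *EGFR*, *AXL*, *CAV1* and *MSN* were high in each group, with means from 207.5 to 1422 CPM, the count relative to the TMM-scaled library size, and *ESR1*, *PGR* and *CDH1* were at or near 0 (at most 0.0916 CPM). *KRT8* (1076 to 1406 CPM), *EPCAM* (18.1 to 19.0 CPM), *GATA3* (12.2 to 15.8 CPM) and *ERBB3* (3.55 to 4.49 CPM), listed as low in this mesenchymal line, were not at 0. Of the leukocyte markers *CD3E* and *PTPRC* averaged at most 0.147 CPM in a group, and *CD14* averaged 3.47 to 5.86 CPM. Some of these markers differed between groups. With viscosity in SC cells the log2 fold changes past the threshold were −0.46 for *CD14*, −0.34 for *ERBB3*, −0.31 for *KRT8*, −0.17 for *VIM* and 0.22 for *AXL* (adjusted p from 0.00403 to 0.0249, edgeR). With the hairpin at 8 cP they were −0.31 for *AXL*, −0.28 for *VIM*, 0.27 for *MSN* and 0.30 for *GATA3* (adjusted p from 0.000193 to 0.00265, edgeR), and the part of these markers in the differences of the members was not tested. Mitochondrially encoded genes took 3.27 to 3.40% of the counts in shTRPV4 cells, against 2.04 to 2.58% in low-viscosity SC cells and 2.23 to 2.44% in high-viscosity SC cells, so this share moves with each comparison of shTRPV4 cells given here and its part in them was not tested. The samples are bulk RNA, in which fewer cells that use a gene and less of its RNA per cell cannot be told apart.

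In SC cells, 8 cP instead of 0.77 cP went with higher *ORAI1*, *STIM2* and *ATP2B1* and with lower *ORAI3* and *RCAN1*. These are 5 of 10 members past an adjusted p of 0.05, where 19.3% of all genes tested passed. The 3 higher members stand beside 9.57% of all genes that were higher, and the 2 lower ones beside 9.69% that were lower. In 7 of 10 members the SC samples at the 2 viscosities did not overlap, as in 38.4% of all genes. The median log2 fold change of the members was 0.071, and that of all genes was −0.0065. These counts leaned on single samples. Of all genes 3518 passed, and 1409 did without replicate 1 of low-viscosity SC cells, 1927 without replicate 2 of them and 1418 without replicate 3 of high-viscosity SC cells, where 3, 3 and 4 members passed. Without replicate 1 of high-viscosity SC cells 3 members and 2750 of all genes passed. The count of all genes rose to 4344 without replicate 3 of low-viscosity SC cells and to 4349 without replicate 1 of shTRPV4 cells.

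With the hairpin at 8 cP, *ORAI2*, *ITPR3* and *RCAN1* were higher and *ITPR1* was lower than in high-viscosity SC cells. These are 4 of 10 members, where 20.0% of all genes passed. All genes were split into 9.02% higher and 11.0% lower. The samples of 4 of 10 members did not overlap, as in 36.3% of all genes, and the median log2 fold change was −0.035 for the members and 0.00065 for all genes. Of all genes 3649 passed, and 2361 did without replicate 1 and 2179 without replicate 2 of high-viscosity SC cells, with 3 members in either case. *RCAN1* was the 1 member that passed in both of these comparisons, which share the 3 high-viscosity SC samples.

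Between shTRPV4 cells and low-viscosity SC cells, which differ in both hairpin and viscosity, 7 of 10 members passed, where 42.4% of all genes did. *ORAI1*, *ORAI2*, *STIM2*, *ITPR3* and *ATP2B1* were higher and *ORAI3* and *ITPR1* were lower, where 20.4% of all genes were higher and 22.0% lower. The samples did not overlap for 7 of 10 members and for 50.6% of all genes, and the medians were 0.14 for the members and −0.011 for all genes. *STIM1* and *ATP2A2* passed in none of the 3 comparisons, and each of the other 8 members passed in 2 of them. The comparison of shTRPV4 with low-viscosity SC cells combines the other 2, so these calls are not independent. The share of all genes that passed in 2 comparisons was not taken. The differences were small: the largest on the log2 scale was −0.71, for *ORAI3*, and only *ORAI3* reached an absolute value of 0.5 in any comparison. The exon bases that *ORAI3* shares with another gene on the same strand make the size of its differences uncertain.

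**Figure D1:**
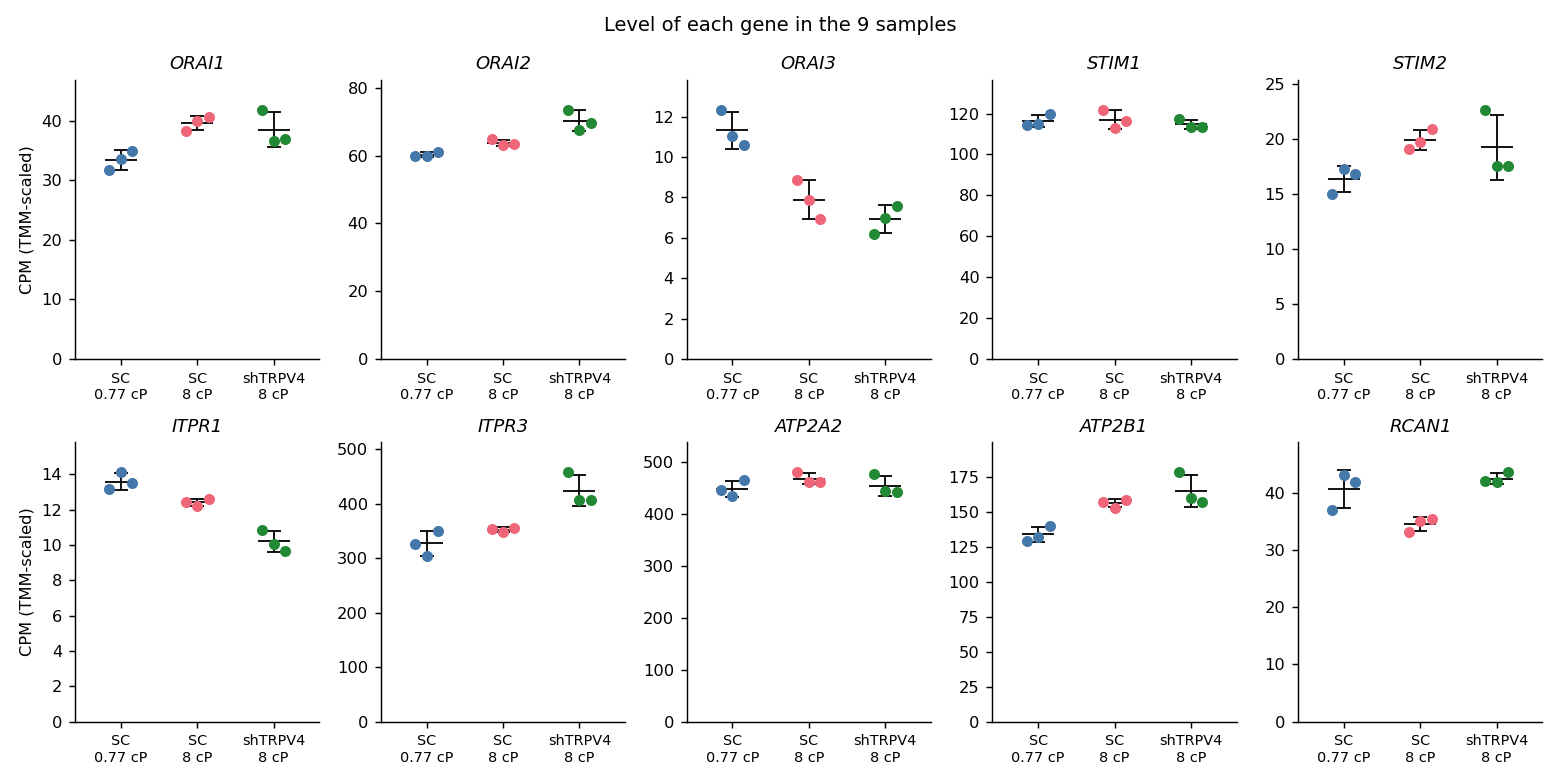
The level of each gene, in CPM scaled by TMM on a vertical axis from 0, in the 3 samples of each group (points from left to right are replicates 1 to 3; line and bar, mean and SD). *ORAI3* falls from 10.6 to 12.3 CPM in low-viscosity SC cells to 6.93 to 8.86 CPM at 8 cP, and *RCAN1* is lowest in high-viscosity SC cells, at 33.1 to 35.4 CPM.

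**Figure D2:**
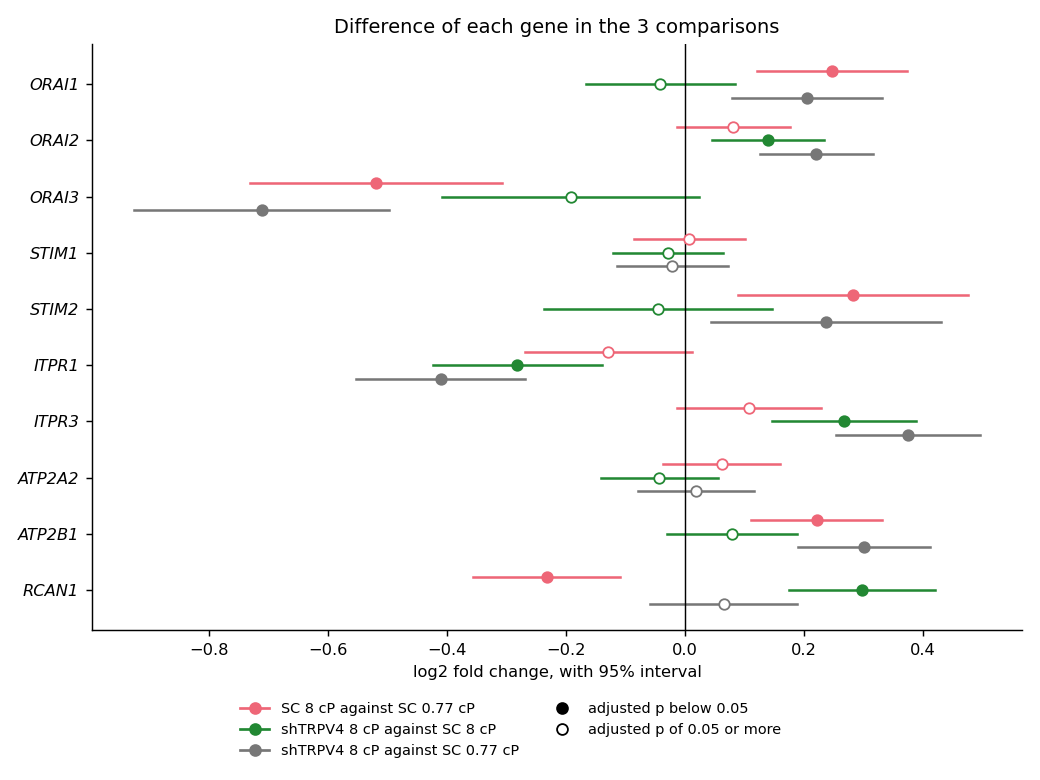
The log2 fold change of each gene in the 3 comparisons with its 95% interval, filled where the adjusted p is below 0.05 in edgeR. *RCAN1* lies at −0.23 for viscosity in SC cells and at 0.30 for the hairpin at 8 cP, while the intervals of *STIM1* and *ATP2A2* hold 0 in all 3.

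Levels were compared between genes only as CPM per kilobase of the canonical transcript. Over the 9 samples the pump gene *ATP2A2* was highest, with a mean of 55.0 CPM per kb, followed by *ITPR3* with 40.5, *STIM1* with 27.9, *ORAI1* with 24.8, *ATP2B1* with 21.5 and *RCAN1* with 15.7. *ORAI2* (6.03), *ORAI3* (3.95), *STIM2* (3.70) and *ITPR1* (1.22) were the low members. Some neighbours in this order did not differ beyond their spread. In high-viscosity SC cells *STIM1* lay at 27.1 to 29.2 and *ORAI1* at 25.6 to 27.1 CPM per kb, and in low-viscosity SC cells *ORAI2* lay at 5.57 to 5.70 and *ORAI3* at 4.80 to 5.60. *STIM2* lay below *ORAI3* in low-viscosity SC cells (3.01 to 3.45 against 4.80 to 5.60 CPM per kb) and above it in shTRPV4 cells (3.51 to 4.53 against 2.81 to 3.44), with overlapping ranges in high-viscosity SC cells (3.82 to 4.18 against 3.14 to 4.02). Of the exon bases of *ORAI3*, 52.9% are shared with another gene on the same strand, so its place in the order is uncertain.

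Among the channels, *ORAI1* encodes the main pore of store-operated entry (GRCh38 chr12:121626509-121643218, plus strand). It has 3 exons in its canonical transcript. Its level was 31.7, 33.5 and 34.9 CPM in low-viscosity SC cells, 38.3, 39.9 and 40.6 CPM in high-viscosity SC cells, and 41.8, 36.6 and 37.0 CPM in shTRPV4 cells. The high-viscosity SC samples were each above those at 0.77 cP, and the shTRPV4 samples lay on both sides of the high-viscosity SC samples. The log2 fold change with viscosity was 0.25 (SE 0.0593, adjusted p = 0.0103, edgeR), which is 18.6% higher. The hairpin difference was −0.041, with a 95% interval from −0.17 to 0.084 (adjusted p = 0.68, edgeR). Against low-viscosity SC cells, shTRPV4 cells were higher by 0.21 on the log2 scale (SE 0.0594, adjusted p = 0.0112, edgeR). Without replicate 1 of low-viscosity SC cells the call for viscosity was lost (adjusted p = 0.0556, of a range from 0.00232 to 0.0556 over the 9 fits that left out 1 sample, edgeR), and the call for shTRPV4 against low-viscosity SC cells was lost without that sample (0.0514) or without shTRPV4 replicate 1 (0.0591, range from 0.00523 to 0.0591, edgeR).

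*ORAI2* encodes a paralogue that forms mixed channels with ORAI1 (chr7:102433106-102456825, plus strand). It shares 588 exon bases, 5.29% of its own, with *ALKBH4* on the other strand. Its level was 59.8, 59.9 and 61.2 CPM in low-viscosity SC cells, 64.9, 63.2 and 63.4 CPM in high-viscosity SC cells, and 73.6, 67.6 and 69.7 CPM in shTRPV4 cells. The 3 groups did not overlap. The difference with viscosity was 0.081 on the log2 scale, with a 95% interval from −0.014 to 0.18 that did not pass (adjusted p = 0.224, edgeR). The hairpin went with a rise of 0.14 (SE 0.0444, adjusted p = 0.037, edgeR), and the call was lost in 6 of 9 fits that left out 1 sample. Those samples were replicate 2 of low-viscosity SC cells, replicates 1, 2 and 3 of high-viscosity SC cells and replicates 1 and 3 of shTRPV4 cells, and the adjusted p over the 9 fits ran from 0.0376 to 0.143 (edgeR). Between shTRPV4 cells and low-viscosity SC cells the log2 fold change was 0.22 (SE 0.0446, adjusted p = 0.000927, edgeR).

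*ORAI3*, the channel paralogue found only in mammals (chr16:30949068-30956461, plus strand), differed most of the members in both comparisons with low-viscosity SC cells. It has 2 exons, and shares 1397 exon bases, 52.9% of its own, with a long non-coding RNA gene (ENSG00000261487) on the same strand. Reads in the shared bases could be assigned to neither gene or to both depending on the counting rule, so the level of *ORAI3* and the size of its differences are uncertain. It measured 12.3, 11.1 and 10.6 CPM in low-viscosity SC cells, 8.86, 7.89 and 6.93 CPM in high-viscosity SC cells, and 6.19, 6.98 and 7.58 CPM in shTRPV4 cells. The low-viscosity SC samples stood above the other 6, which overlapped. Viscosity went with a fall of 30.3% in SC cells (log2 fold change −0.52, SE 0.0994, adjusted p = 0.00304, edgeR). At 8 cP the hairpin difference was −0.19, with a 95% interval from −0.41 to 0.024 (adjusted p = 0.209, edgeR). shTRPV4 cells were 38.9% below low-viscosity SC cells (log2 fold change −0.71, SE 0.101, adjusted p = 4.72e-05, edgeR).

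The ratio of *ORAI1* to *ORAI3* was taken within each sample, where the scaling of the library cancels. The pair was chosen after its levels were seen, so the ratio restates them and no test is given. Per kilobase there was 3.78 to 4.87 times as much *ORAI1* as *ORAI3* in low-viscosity SC cells, 6.37 to 8.64 times in high-viscosity SC cells and 7.19 to 9.96 times in shTRPV4 cells. The SC samples at the 2 viscosities did not overlap, and their mean log2 ratios differed by 0.77. Of the 3 ORAI genes together, *ORAI3* made up 15.6 ± 1.61% in low-viscosity SC cells, 9.96 ± 1.29% in high-viscosity SC cells and 8.91 ± 1.28% in shTRPV4 cells (SD, n = 3 each, per kilobase). The exon bases that *ORAI3* shares with another gene make the size of this ratio and of these shares uncertain. *ORAI1* made up 67.5 ± 1.82%, 73.5 ± 1.63% and 72.6 ± 1.55% in the same order. The order of *ORAI1* and *ORAI2* rests on the canonical transcript lengths of 1496 and 10747 bases: in counts *ORAI2* held the larger share, at 57.4, 57.3 and 60.8% against 31.8, 35.6 and 33.2% for *ORAI1*, and *ORAI3* held 10.8, 7.09 and 6.00%.

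Of the sensors, *STIM1* encodes the main one (chr11:3854527-4093210, plus strand), and 330 of its exon bases (2.74%) overlap other genes on the same strand. It measured 114.6, 114.8 and 120.0 CPM in low-viscosity SC cells, 121.9, 113.0 and 116.3 CPM in high-viscosity SC cells, and 117.4, 113.6 and 113.3 CPM in shTRPV4 cells. All 3 groups overlapped. The log2 fold changes were 0.0072 with viscosity (95% interval −0.086 to 0.10), −0.029 with the hairpin (−0.12 to 0.064) and −0.021 between shTRPV4 cells and low-viscosity SC cells (−0.11 to 0.072). No bound of these 3 intervals lay farther from 0 than −0.12.

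*STIM2* encodes the sensor that responds to smaller losses of store calcium (chr4:26857601-27025381, plus strand). Its level was 15.0, 17.3 and 16.8 CPM in low-viscosity SC cells, 19.1, 19.7 and 20.9 CPM in high-viscosity SC cells, and 22.7, 17.6 and 17.5 CPM in shTRPV4 cells. The high-viscosity SC samples were each above those at 0.77 cP, and shTRPV4 replicate 1 stood above the other shTRPV4 samples. *STIM2* was 21.6% higher with viscosity (log2 fold change 0.28, SE 0.0908, adjusted p = 0.041, edgeR). That call was lost in 5 of 9 fits that left out 1 sample, namely without replicate 1 or 2 of low-viscosity SC cells or without any 1 of the high-viscosity SC samples, with adjusted p from 0.00522 to 0.168 over the 9 fits (edgeR). The hairpin difference at 8 cP was −0.045 (95% interval −0.24 to 0.15). The call between shTRPV4 cells and low-viscosity SC cells (log2 fold change 0.24, adjusted p = 0.0473, edgeR) was lost without replicate 1 of any of the 3 groups, and without shTRPV4 replicate 1 the log2 fold change was 0.10 (adjusted p = 0.299, range from 0.0216 to 0.299, edgeR).

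Per kilobase *STIM1* was 7.98 to 9.15 times as high as *STIM2* in low-viscosity SC cells, 6.68 to 7.66 times in high-viscosity SC cells and 6.21 to 7.76 times in shTRPV4 cells. The ratio of *ORAI1* to *STIM1* was 0.770 to 0.813 in low-viscosity SC cells, 0.875 to 0.984 in high-viscosity SC cells and 0.898 to 0.993 in shTRPV4 cells. For both ratios the SC samples at the 2 viscosities did not overlap, and those of shTRPV4 and high-viscosity SC cells did.

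Of the release channels, both IP3 receptor genes passed in the comparisons of shTRPV4 cells with SC cells at either viscosity, in opposite directions. *ITPR3*, the receptor subtype that predominates in many epithelial cells (chr6:33620365-33696574, plus strand), shares 1025 exon bases, 10.4% of its own, with *UQCC2* on the other strand. Its level was 326.7, 303.3 and 350.6 CPM in low-viscosity SC cells, 353.1, 347.6 and 355.7 CPM in high-viscosity SC cells, and 457.2, 407.1 and 407.4 CPM in shTRPV4 cells. The shTRPV4 samples were each above all SC samples, which overlapped between viscosities. *ITPR3* was 20.4% higher with the hairpin at 8 cP (log2 fold change 0.27, SE 0.0569, adjusted p = 0.00378, edgeR). The difference with viscosity was 0.11 (95% interval −0.014 to 0.23, adjusted p = 0.207, edgeR) and passed only without replicate 3 of low-viscosity SC cells (0.17, adjusted p = 0.0384, range from 0.0384 to 0.529 over the fits without 1 sample, edgeR). Against low-viscosity SC cells shTRPV4 cells were 29.7% higher (adjusted p = 8.8e-05, edgeR).

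*ITPR1*, a subtype abundant in neurons (chr3:4493345-4847506, plus strand), went the other way. It has 62 exons in its canonical transcript, and 444 exon bases (1.38%) overlap a gene on the other strand. Its level was 13.2, 14.1 and 13.5 CPM in low-viscosity SC cells, 12.4, 12.2 and 12.6 CPM in high-viscosity SC cells, and 10.9, 10.1 and 9.69 CPM in shTRPV4 cells, with no overlap between any of the groups. At 8 cP it was 17.7% lower with the hairpin (log2 fold change −0.28, SE 0.0669, adjusted p = 0.00785, edgeR). With viscosity the log2 fold change was −0.13 (95% interval −0.27 to 0.012, adjusted p = 0.19, edgeR), and between shTRPV4 cells and low-viscosity SC cells it was −0.41 (SE 0.067, adjusted p = 0.000159, edgeR). No fit that left out 1 sample lost either call of the hairpin cells.

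Within a sample there was 23.5 to 28.4 times as much *ITPR3* as *ITPR1* per kilobase in low-viscosity SC cells, 30.8 to 31.1 times in high-viscosity SC cells and 44.1 to 45.9 times in shTRPV4 cells. No 2 groups overlapped, and the step between the cells at 8 cP was 1.46-fold. This pair too was chosen after its levels were seen. Of the 3 IP3 receptor genes, *ITPR3* made up 93.2 ± 0.605%, 93.7 ± 0.0651% and 95.7 ± 0.112% in low-viscosity SC cells, high-viscosity SC cells and shTRPV4 cells (SD, n = 3 each). *ITPR2*, the remaining subtype, was not a member and fell by 0.32 on the log2 scale with the hairpin at 8 cP (adjusted p = 0.00938, edgeR). The call was lost without shTRPV4 replicate 2, with adjusted p from 0.000325 to 0.0514 over the 9 fits (edgeR).

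**Figure D3:**
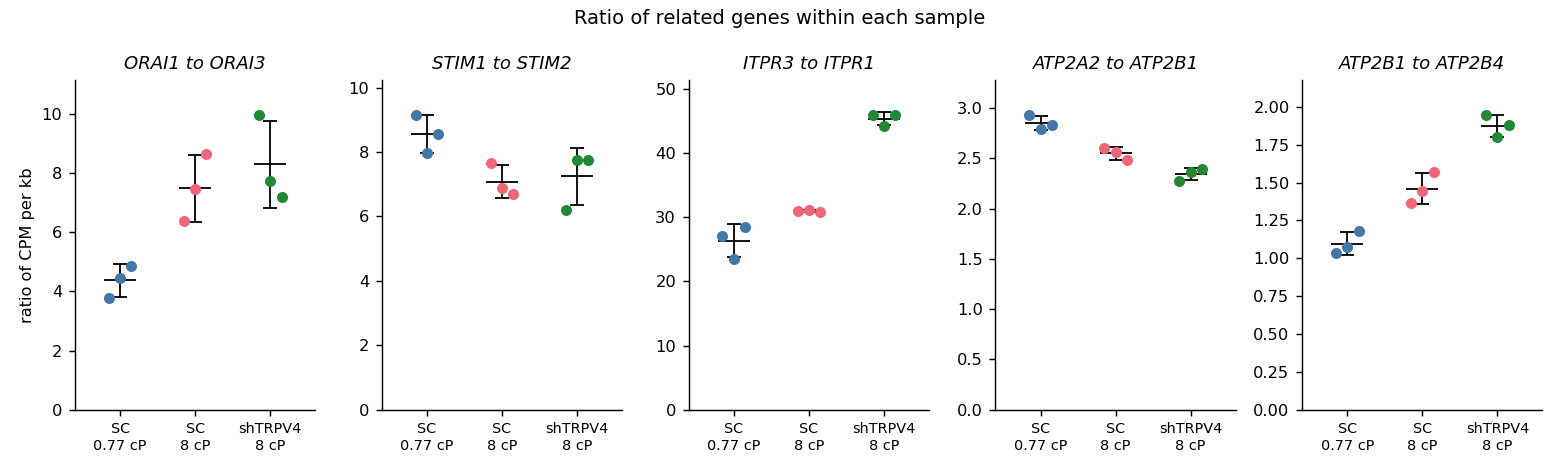
Ratios of CPM per kilobase of related genes within each sample, with a vertical axis from 0 in each panel (points from left to right are replicates 1 to 3; line and bar, mean and SD). *ITPR3* to *ITPR1* averages 26.3, 31.0 and 45.3 in low-viscosity SC cells, high-viscosity SC cells and shTRPV4 cells, and *ATP2B1* to *ATP2B4* averages 1.10, 1.46 and 1.88.

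Both pumps were among the better expressed members. *ATP2A2* encodes SERCA2, which refills the reticulum in most cells (chr12:110280756-110351093, plus strand). Its level was 444.4, 433.3 and 464.6 CPM in low-viscosity SC cells, 479.2, 459.9 and 461.6 CPM in high-viscosity SC cells, and 475.5, 443.0 and 441.1 CPM in shTRPV4 cells, with overlap between all groups. The log2 fold changes were 0.062 with viscosity (95% interval −0.036 to 0.16), −0.043 with the hairpin (−0.14 to 0.055) and 0.018 between shTRPV4 cells and low-viscosity SC cells (−0.079 to 0.12).

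*ATP2B1* encodes the widespread plasma membrane calcium pump PMCA1 (chr12:89588049-89709366, minus strand), and 148 of its exon bases (1.55%) overlap *ATP2B1-AS1* on the other strand. It measured 129.2, 132.2 and 139.9 CPM in low-viscosity SC cells, 156.6, 152.8 and 158.6 CPM in high-viscosity SC cells, and 178.0, 159.4 and 157.0 CPM in shTRPV4 cells. All samples at 8 cP were above those at 0.77 cP, and the SC and shTRPV4 samples at 8 cP overlapped. With viscosity it was 16.6% higher in SC cells (log2 fold change 0.22, SE 0.0518, adjusted p = 0.00888, edgeR), a call kept in each of 9 fits that left out 1 sample. The hairpin difference was 0.079 on the log2 scale (95% interval −0.031 to 0.19, adjusted p = 0.315, edgeR). Between shTRPV4 cells and low-viscosity SC cells it was 0.30 (SE 0.0518, adjusted p = 0.000251, edgeR).

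*ATP2B4*, another plasma membrane pump and not a member, is given because it moved against *ATP2B1*. It measured 153.8, 151.2 and 146.0 CPM in low-viscosity SC cells, 141.3, 130.1 and 124.5 CPM in high-viscosity SC cells, and 112.7, 109.1 and 102.9 CPM in shTRPV4 cells, with no overlap between groups. It fell by 0.19 on the log2 scale with viscosity (SE 0.052, adjusted p = 0.0207, edgeR). That call was lost without replicate 1 or 2 of low-viscosity SC cells or replicate 2 or 3 of high-viscosity SC cells, with adjusted p from 0.011 to 0.141 over the 9 fits (edgeR). With the hairpin it fell by 0.29 (SE 0.0521, adjusted p = 0.00124, edgeR), and no fit without 1 sample lost that call. Of the plasma membrane pump genes together, *ATP2B1* made up 52.0 ± 1.76% in low-viscosity SC cells, 59.1 ± 1.70% in high-viscosity SC cells and 65.1 ± 0.912% in shTRPV4 cells (SD, n = 3 each, per kilobase). Within a sample the ratio of *ATP2A2* to *ATP2B1* was 2.79 to 2.93, 2.48 to 2.61 and 2.27 to 2.39 in the same order, without overlap.

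*RCAN1*, the feedback inhibitor of calcineurin (chr21:34513142-34615113, minus strand), differed in opposite directions with viscosity and with the hairpin. Of its exon bases, 921 (13.2%) are shared with a read-through gene (ENSG00000288711) on the same strand. It is transcribed from several starts, and NFAT is known to act on an inner one. The deposited counts are per gene and cannot tell the starts apart, so RefSeq sequences (GRCh38.p14) from 250 bases before to 50 bases after a start are shown for the outermost start and for the window with the most copies of GGAAA, the core letters to which NFAT binds, among the 6 windows of *RCAN1*. The outer window is chr21:34615064-34615363 and the inner one chr21:34526773-34527072, both on the minus strand, with each GGAAA or its reverse complement TTTCC in capitals.
RCAN1 outer start: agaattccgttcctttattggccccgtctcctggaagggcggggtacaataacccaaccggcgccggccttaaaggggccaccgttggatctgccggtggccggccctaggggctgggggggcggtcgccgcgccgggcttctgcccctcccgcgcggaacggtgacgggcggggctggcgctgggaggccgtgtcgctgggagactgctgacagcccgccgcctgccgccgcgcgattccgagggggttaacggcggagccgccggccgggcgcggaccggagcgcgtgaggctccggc
RCAN1 inner start: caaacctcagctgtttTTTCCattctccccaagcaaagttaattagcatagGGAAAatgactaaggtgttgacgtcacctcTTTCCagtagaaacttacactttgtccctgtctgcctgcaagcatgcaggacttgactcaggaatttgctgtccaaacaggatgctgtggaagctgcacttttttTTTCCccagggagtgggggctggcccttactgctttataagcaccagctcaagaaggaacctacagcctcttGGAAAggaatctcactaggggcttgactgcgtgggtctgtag

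The inner window holds 5 matches to GGAAA on either strand, and the outer window 0. At least 1 match is found in 61.2% of all 35116 windows of this length, and 5 or more in 0.74% of them. The inner window was picked for the most matches among the 6, so this share does not measure how unusual its count is. It held 48% GC, against 74% in the outer window. The inner window also holds 1 AP-1 motif (TGANTCA, in 7.71% of all windows) and 1 CRE motif (TGACGTCA, in 1.85%). Neither overlaps a run in capitals, and a match describes the letters and not binding. Of the 10 members, 9 had windows in the RefSeq table, 19 in all, and in the 13 windows of the other 8 members GGAAA occurred at most 1 time. Those 13 windows held 55.7 to 81.7% GC, and the part of base composition in these counts was not tested.

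The level of *RCAN1* was 36.9, 43.0 and 41.9 CPM in low-viscosity SC cells, 33.1, 35.1 and 35.4 CPM in high-viscosity SC cells, and 42.0, 41.8 and 43.5 CPM in shTRPV4 cells. The high-viscosity SC samples were each below the other 6, which overlapped. In SC cells it was 14.9% lower at 8 cP than at 0.77 cP (log2 fold change −0.23, SE 0.058, adjusted p = 0.0124, edgeR). This call was lost without replicate 2 of low-viscosity SC cells (adjusted p = 0.0775) or without replicate 1 of high-viscosity SC cells (0.064, range from 0.00636 to 0.0775, edgeR). It was 22.9% higher in shTRPV4 cells than in high-viscosity SC cells (log2 fold change 0.30, SE 0.0579, adjusted p = 0.00207, edgeR), and no fit that left out 1 sample lost this call. The 2 differences share the high-viscosity SC samples. Between shTRPV4 cells and low-viscosity SC cells the log2 fold change was 0.065 (95% interval −0.058 to 0.19, adjusted p = 0.399, edgeR).

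Within shTRPV4 cells, replicate 1 was the highest of the 3 samples for 8 of 10 members, while *RCAN1* and *ORAI3* were highest in replicate 3. Within high-viscosity SC cells replicate 1 was highest for 4 members and replicate 3 for 6. The share of all genes that were highest in a given sample was not taken. shTRPV4 replicate 1 also stood apart beyond the members, by the chi-square per gene, which measures how far the counts of a pair of samples differ. It was 18.13 against replicate 2 and 28.9 against replicate 3, and 6.268 between replicates 2 and 3. Without shTRPV4 replicate 1 the hairpin difference at 8 cP of *ITPR3* was 0.21 on the log2 scale (adjusted p = 0.0115, range from 0.0014 to 0.023 without 1 sample, edgeR) in place of 0.27.

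For the wider machinery of calcium handling, 8 lists were written from general knowledge, with earlier results of these data known. They hold 66 genes, of which 56 were tested. With viscosity in SC cells 12 of these passed (21.4%, beside 19.3% of all genes), 5 higher and 7 lower. With the hairpin 17 passed (30.4%, beside 20.0%), 5 higher and 12 lower. Between shTRPV4 cells and low-viscosity SC cells 26 passed (46.4%, beside 42.4%), 7 higher and 19 lower. The count for viscosity fell to 1 without replicate 1 of low-viscosity SC cells or replicate 3 of high-viscosity SC cells, to 4 without replicate 2 of low-viscosity SC cells, to 6 without replicate 1 of high-viscosity SC cells and to 5 without replicate 2 of high-viscosity SC cells. Of all genes 3518 passed for viscosity, and in these fits, in the same order, 1409, 1418, 1927, 2750 and 2702 did. The count for the hairpin fell to 11 without replicate 1 and to 9 without replicate 2 of high-viscosity SC cells. In those fits the count of all genes fell from 3649 to 2361 and to 2179.

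Upstream of the IP3 receptors, 1 of 8 phospholipase C genes passed with viscosity and 2 passed with the hairpin, beside 19.3 and 20.0% of all genes. *PLCD1*, which cleaves membrane phosphoinositide to IP3, measured 21.5, 21.7 and 20.3 CPM in low-viscosity SC cells and 17.5, 15.7 and 15.5 CPM in high-viscosity SC cells, without overlap. Its log2 fold change was −0.38 (SE 0.0629, adjusted p = 0.00127, edgeR), and it stayed past the threshold without any 1 sample. *PLCG1*, the isoform downstream of receptor tyrosine kinases, was 0.24 higher with the hairpin at 8 cP (SE 0.0476, adjusted p = 0.00259, edgeR). *PLCG2* was also 0.24 higher, at an adjusted p of 0.0491 (edgeR) that was lost in 6 of 9 fits without 1 sample.

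Of the partners of store-operated entry, 1 of 7 passed with viscosity and 3 of 7 with the hairpin, beside 19.3 and 20.0% of all genes. *TRPC1*, a cation channel that can be coupled to store emptying, fell by 0.25 on the log2 scale at 8 cP in SC cells (adjusted p = 0.0295, edgeR), a call lost in 5 of 9 fits without 1 sample. With the hairpin at 8 cP, *CRACR2A*, a calcium-binding regulator of ORAI and STIM, was 0.34 higher (adjusted p = 0.00462), *ORMDL3*, a regulator of sphingolipid synthesis, was 0.18 higher (adjusted p = 0.0256) and *SARAF*, which inactivates store-operated entry, fell by 0.16 (adjusted p = 0.03, edgeR). The call of *CRACR2A* was kept without any 1 sample, and those of *ORMDL3* and *SARAF* were each lost in 4 of 9 such fits. Of the 6 other release channels and regulators tested, none passed with viscosity and 2 passed with the hairpin, beside 19.3 and 20.0% of all genes. The 2 were *ITPR2* and *TMCO1*, a channel that lets calcium leak from an overfilled reticulum, and both were lower (log2 fold change of *TMCO1* −0.22, adjusted p = 0.00866, edgeR, lost in 1 of 9 fits without 1 sample).

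Of the other pumps, 4 of 6 tested genes passed with viscosity, 1 higher and 3 lower, beside 19.3% of all genes. Among the lower ones, *ATP2B2* (1.04 against 1.91 CPM) and *ATP2A1* (0.415 against 0.741 CPM) were near the lower limit of the levels tested. Their log2 fold changes were −0.88 and −0.85, with adjusted p of 0.0405 and 0.0343 (edgeR), each lost in 5 of 9 fits without 1 sample. *SLC8B1*, the mitochondrial sodium-calcium exchanger, fell by 0.24 with the hairpin at 8 cP (adjusted p = 0.00146, edgeR).

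Mitochondria take up calcium near the release channels through the uniporter. With the hairpin at 8 cP, 4 of the 7 genes of this list passed, 3 lower and 1 higher, beside 20.0% of all genes. *MCUB*, a paralogue of the pore that lowers its conductance, measured 73.5, 79.1 and 80.9 CPM in high-viscosity SC cells and 65.4, 63.9 and 67.5 CPM in shTRPV4 cells (log2 fold change −0.25, adjusted p = 0.00175, edgeR). *SMDT1*, the small subunit that links pore and gatekeepers, fell by 0.23 (adjusted p = 0.0141) and *LETM1*, an ion exchanger of the inner membrane, was 0.23 higher (adjusted p = 0.0203, edgeR). *LETM1* was also 0.25 higher with viscosity in SC cells (adjusted p = 0.0163), and *MICU3*, a gatekeeper, fell by 0.38 there (adjusted p = 0.0422, edgeR). In the 9 fits without 1 sample the call of *MCUB* was never lost, those of *SMDT1* and of *LETM1* in either comparison were lost in 3, and that of *MICU3* in 5.

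Downstream of calcium entry, 3 of 13 genes of calmodulin, calcineurin and NFAT passed with the hairpin, beside 20.0% of all genes. Under the hairpin *PPP3CB*, a catalytic subunit of calcineurin, measured 66.6, 66.3 and 66.1 CPM against 78.9, 81.0 and 78.3 CPM in SC cells, a log2 fold change of −0.26 (SE 0.041, adjusted p = 0.000403, edgeR). *CALM3*, a calmodulin gene, fell by 0.23 (adjusted p = 0.0019) and *RCAN3*, a paralogue of *RCAN1*, fell by 0.20 (adjusted p = 0.0146, edgeR), against the direction of *RCAN1*. The calls of *PPP3CB* and *CALM3* were kept without any 1 sample, and that of *RCAN3* was lost in 1 of the 9 fits. None of the NFAT genes tested passed with viscosity in SC cells or with the hairpin at 8 cP. *NFATC2* was 0.31 higher with the hairpin at an adjusted p of 0.0536 (edgeR), and it is named after its value was seen.

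The calcium-binding proteins of the reticulum had 3 of 7 genes past the threshold with viscosity, beside 19.3% of all genes. The chaperone gene *CANX* and *CALU*, an EF-hand protein gene, were each 0.17 higher (adjusted p = 0.0161 and 0.0146) and *CALR*, a main buffer of stored calcium, fell by 0.15 (adjusted p = 0.0296, edgeR). In shTRPV4 cells *SDF4*, a Golgi calcium-binding protein, fell by 0.23 (adjusted p = 0.00133, edgeR), the 1 gene of 7 that passed, beside 20.0% of all genes. Without 1 sample the call of *SDF4* was kept in all 9 fits, those of *CANX* and *CALU* were lost in 2 and that of *CALR* in 5.

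**Figure D4:**
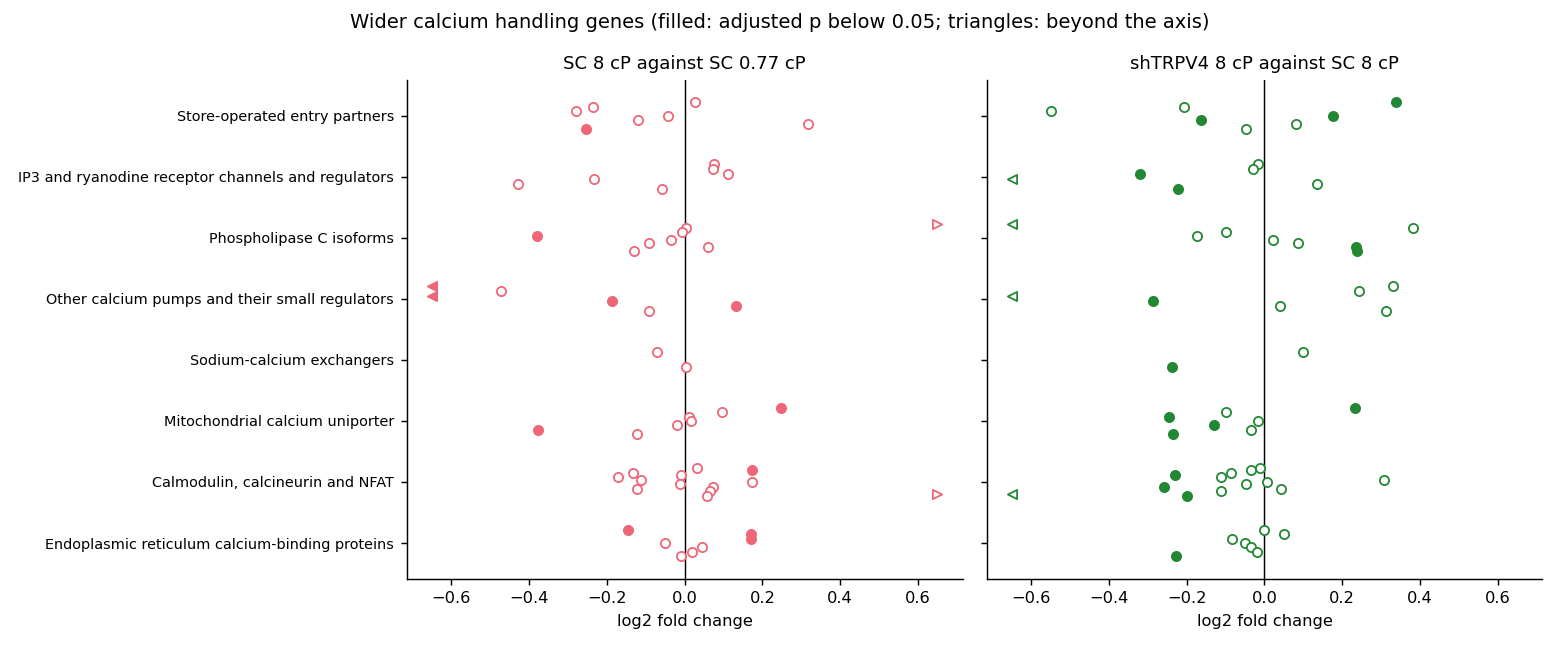
The log2 fold change of each of the 56 tested genes of 8 calcium handling lists, for viscosity in SC cells and for the hairpin at 8 cP (filled, adjusted p below 0.05 in edgeR; triangles lie beyond the axis). Filled points are 5 above and 7 below 0 for viscosity, and 5 above and 12 below 0 for the hairpin.

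As a description, the genes whose log2 CPM followed a member most closely over the 9 samples were sought, for each of the 8 members past the threshold in a comparison, among 10697 genes that averaged 5 CPM or more. The samples share 3 groups, so that a gene with the same group means correlates without any other relation, and no test was made. Pearson's r was highest with *PAPOLA* for *ORAI1* (0.988), with *MPZL1* for *ORAI2* (0.989) and with *MAPK3* for *ORAI3* (0.994). It was highest with *ACVR1* for *STIM2* (0.984), and *ORAI1* was among the 3 closest genes there (0.954). For the release channels the closest genes were *OSBP* for *ITPR1* (0.99) and *USP36* for *ITPR3* (0.995), and for *ATP2B1* it was *ITGA6* (0.995). *RCAN1*, with its low at 8 cP in SC cells, had the least close companions of these 8: *UBE2W* (0.93), *SNHG10* (0.89) and *PVT1* (0.888).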

How the data were processed

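The 9 samples of MDA-MB-231 RNA form 3 groups of 3, taken from the sample titles. As described by the authors, strand-specific poly(A) libraries were mapped to GRCh38 with HISAT2 2.2.1 and exon reads were totalled per gene with HTSeq 0.13.5. The deposited counts are not normalized, and whether the counting used strand is not given in the sources used here. A symbol was found for 60463 of 60664 gene IDs.

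Counts were scaled with TMM, filtered with filterByExpr and tested with edgeR 4.0.16 (quasi-likelihood test, 1 coefficient per group, all 9 samples, Benjamini-Hochberg adjustment over 18264 genes, threshold 0.05) in R 4.3.3 with limma 3.58.1. The method was tested on simulated data. CPM per kilobase uses the canonical transcript of GENCODE. Precision was set by the spread between samples (common biological coefficient of variation 0.0633), since each member had at least 546 counts in each sample. The methods speak in general of independent biological replicas, but neither they nor the labels say so of these RNA samples, so p-values measure only the spread between these samples, which may be technical. The alternatives were DESeq2 1.42.0, RLE and upper quartile scaling, no filter, a minimum of 10 counts per sample, a fit of the 6 samples compared alone, the replicate number as a block, a minimum absolute log2 fold change of 0.5, and leaving out each sample. Each of the 9 samples was left out for every comparison. Fits without a sample of the group not compared bear on that comparison only through scaling, filter and shared spread. Ratios within a sample were added after seeing the data and are given as a description.

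The members and lists were chosen with earlier results of these data known. The genes named are *TRPV4*, the members, up to 3 genes per list and comparison, taken by smallest adjusted p among those called, and the genes that correlate most with a member. *ITPR2* was also followed as a relative of members, and *ATP2B4*, a relative of *ATP2B1*, was followed because it moved against that gene. Some genes of the lists are not reported here.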

Additional observations from a re-analysis of the deposited data

How the results depend on the processing

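The number of members past the threshold was 5 for viscosity in SC cells, 4 for the hairpin at 8 cP and 7 for shTRPV4 cells against low-viscosity SC cells, and stayed within 1.5 times of these under RLE scaling, upper quartile scaling, no filter, a minimum of 10 counts per sample, a fit of the 6 samples compared alone and DESeq2. Requiring an absolute log2 fold change of 0.5 as well left 1, 0 and 1 of them, and the share of all genes left by this was not taken. With 1 sample left out, the members ran from 3 to 6, 3 to 4 and 5 to 7. They fell to 3 for viscosity without replicate 1 or 2 of low-viscosity SC cells or replicate 1 of high-viscosity SC cells, and the wider genes ran from 1 to 13, 9 to 19 and 18 to 26. Over the same fits the count of all genes ran from 1409 to 4349, 2179 to 3836 and 6318 to 7705. Without 1 sample, 244 of the member log2 fold changes kept direction and side of the threshold, 19 lost and 1 gained the call. Of the other settings, 204 kept both and 5 lost the call: *STIM2* for viscosity under the replicate block (0.28), *ORAI2* for the hairpin without a filter (0.14), and *STIM2* for shTRPV4 cells against low-viscosity SC cells under upper quartile scaling (0.22), under the replicate block (0.23) and with only 6 samples (0.24). The causes were not tested.

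Sign changes occurred only where no call was made. Without 1 sample, *STIM1* for viscosity ran from −0.015 to 0.043 and *TRPV4* from −0.33 to 0.27, by way of 0.11. *STIM1* was −0.0026 under upper quartile scaling and *TRPV4* 0.00016 in DESeq2. In the same way *STIM1* ran from −0.057 to 0.00098 and *STIM2* from −0.18 to 0.018 for the hairpin, and *STIM1* from −0.038 to 0.00996 and *ATP2A2* from −0.017 to 0.055 for shTRPV4 against low-viscosity SC cells.

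The labels number replicates 1 to 3 in each group without saying what a number stands for. Over all groups, deviations of same-numbered samples correlated between −0.0546 and 0.0904, and of others between −0.106 and 0.115. Between low-viscosity and high-viscosity SC cells, replicates 1, 2 and 3 correlated with their namesakes at 0.0455, 0.0320 and 0.0904. Samples with unlike numbers gave lower values there, from −0.0591 to 0.0167. With shTRPV4 cells, like numbers gave −0.0546 to 0.0381, inside the range of unlike ones. These small correlations cannot settle whether the numbers pair the SC samples. With the replicate number as a block, 4, 4 and 6 members and 11, 18 and 25 wider genes passed. Of all 18264 genes 3475, 3607 and 7731 passed in that fit.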
